A study of Homo sapiens with 9 samples.

Results

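PTBP1 and PTBP2, the genes for the polypyrimidine tract binding proteins, were followed isoform by isoform in 4 RNA-seq libraries. Members were all assembled isoforms whose reference name carried the symbol PTBP1 or PTBP2, 32 of 206846 listed, of which 29 of 199618 had a value in the isoform table (16 of PTBP1 and 13 of PTBP2). The other 3 were not analysed here. The cells were HEK293, a human embryonic kidney line, of the Flp-In T-Rex subline b-39, which in all 4 libraries carries a beta-globin reporter with a premature stop (PTC39) at the Flp-In locus. The control received siRNA against EGFP, and the others siRNA against XRN1 alone, against SMG6 and XRN1, or against UPF1 and XRN1. Cytoplasmic poly(A)+ RNA was sequenced from 1 library per condition, so differences could not be checked against replicates and no p-value was computed. The other samples of the series, of 9 in all, were not used here.

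PTBP1 and PTBP2 bind pyrimidine-rich RNA and mostly repress the splicing of nearby exons. PTBP1 is made in most cell types, while PTBP2 is best known from developing neurons. Each gene has a short exon whose loss shifts the reading frame, and PTBP1 protein promotes the loss of that exon from its own RNA and from PTBP2 RNA. The resulting mRNAs are textbook substrates of nonsense-mediated decay (NMD), in which the helicase UPF1 recognises translation that stops early and the endonuclease SMG6 cuts the RNA. XRN1 degrades the cut or decapped RNA from its 5' end.

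The short exons are shown first because the isoform that carries the main result lacks one of them. They are exon 11 of PTBP1 (chr19:807869-807902) and exon 10 of PTBP2 (chr1:96806419-96806452), both on the plus strand of GRCh38 and numbered as in the GENCODE v29 models PTBP1-203 and PTBP2-201. Each has 34 nt, and capitals mark the 9 positions at which they differ.
PTBP1 exon 11: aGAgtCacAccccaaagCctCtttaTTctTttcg
PTBP2 exon 10: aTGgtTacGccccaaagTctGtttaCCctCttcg
These letters come from the GENCODE v29 transcripts, and the deposited files, made on hg19, were joined to them by transcript identifier only.

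The genes share this layout along most of their length. PTBP1 spans chr19:797075-812327 and PTBP2 spans chr1:96721665-96823738 (GRCh38). Of 12 internal exon pairs compared, 8 had equal length, and identity ran from 58.7% to 74.2% with a median of 66.1%. The short exon stood at 73.5%, next to the highest, the 93-nt exon that follows it (74.2%).

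Skipping the short exon moves both reading frames to the same stop. PTBP2-207, a GENCODE model that lacks exon 10, also has an exon 9 that begins 15 nt later than in PTBP2-201. Its translation from the start codon of PTBP2-201 met TGA after 356 codons, against 537 codons in PTBP2-201 itself. That stop began at base 25 of the next exon and lay 361 nt upstream of the last exon junction, whereas the normal stop lay in the last exon. PTBP1-201 with exon 11 removed by computation met TGA after 355 codons, against 531, again at base 25 of the next exon and 361 nt upstream of the last junction. A stop well upstream of an exon junction is the usual mark of an NMD substrate. The junctions are printed with 30 nt before them and 60 nt after them, and the capitals are the stop codon.
PTBP2-207: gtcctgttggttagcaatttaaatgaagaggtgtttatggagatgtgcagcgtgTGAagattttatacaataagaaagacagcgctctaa
PTBP1-201 without exon 11: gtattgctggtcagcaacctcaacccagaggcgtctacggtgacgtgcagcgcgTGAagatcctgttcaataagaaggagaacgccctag

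**Figure D1:**
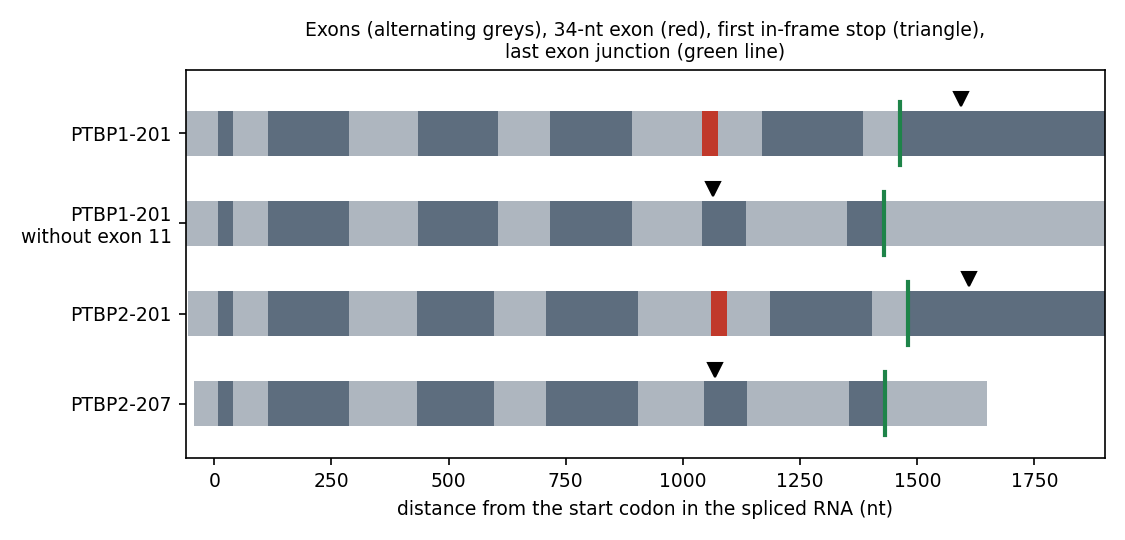
Exons of 4 models along the spliced RNA, in nt from the start codon, with the 34-nt exon in red, the first in-frame stop as a triangle and the last exon junction as a green line. In both models without the 34-nt exon the triangle lies 361 nt before the green line, and in both models with it the triangle lies beyond the line.

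Depth and labels were checked before the values were read. Most low signals summed over a locus lay on multiples of 1 step per library, which gave 31476860 to 35983050 estimated reads per library. Signals of single isoforms can be fractions of a read. PTBP1 held 8011, 9763, 10321 and 11867 of these in control, XRN1, SMG6/XRN1 and UPF1/XRN1, and PTBP2 held 2113, 3906, 8528 and 8359. XRN1 mRNA stood at 7.80 FPKM in the control and 7.31 in the library labelled XRN1, SMG6 mRNA at 4.77 and, in SMG6/XRN1, 7.66, and UPF1 mRNA at 6.71 and, in UPF1/XRN1, 8.59. XRN1 signal in XRN1 was 0.894 times the control (0.834 to 0.958), and no targeted mRNA was 2-fold below the control. UPF1 mRNA had 11.6 FPKM in XRN1 and 11.4 in SMG6/XRN1, so it was lower in UPF1/XRN1 than in either, with a signal of 0.636 times that of XRN1 (0.591 to 0.684). SMG6 mRNA had 5.55 FPKM in XRN1 and a signal in SMG6/XRN1 of 0.983 times that of XRN1 (0.883 to 1.09). These small or missing differences are a weak check of the labels, and each direction given here rests on the labels. Among markers of embryonic kidney lines VIM stood at 360 to 380 FPKM, while PAX2 stood at 0.189 to 0.304. Every ratio given as times is one of spike-in normalised signal, and its exact 95% interval, like those of shares, comes from the estimated reads and covers counting error only.

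Of the listed PTBP2 models known to skip exon 10, PTBP2-208 and PTBP2-210 had no value, and only PTBP2-207 was measured. PTBP2-207 had a listed value of 0 in control and XRN1 and was the most abundant PTBP2 isoform in both co-depletions. Its spike-in normalised signal was 15127 in SMG6/XRN1 (3558 estimated reads) and 14139 in UPF1/XRN1 (3801 reads). It made up 41.7% of the signal of the locus in SMG6/XRN1 (40.7 to 42.8) and 45.5% in UPF1/XRN1 (44.4 to 46.5). A listed 0 can be a failed estimate, so it does not show that the isoform was absent from control and XRN1, and no fold is given. Between the co-depletions its signal in UPF1/XRN1 was 0.935 of that in SMG6/XRN1 (0.893 to 0.979).

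Such a pattern was uncommon among isoforms. Of 57130 isoforms with a mean of at least 10 estimated reads, 663 (1.16%) were listed at 0 in both control and XRN1 and had at least 10 reads in each co-depletion. Ranked by the smaller of their co-depletion signals, PTBP2-207 was at place 2 of these 663. Such isoforms reach that mean only through the co-depletions. The count and the place use the same values that make up the pattern, so they describe it and do not support it. In a gain of at least 30 percentage points by 1 isoform in both co-depletions over XRN1, PTBP2 was among 16 of 4921 loci with at least 1000 reads in each library (0.325%), at place 4. This place takes the listed 0 of PTBP2-207 in XRN1 as it stands. The largest gain of a PTBP1 isoform by the same measure of gain was 1.38 points, beside a median of 2.35 points over the 4921 loci.

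**Figure D2:**
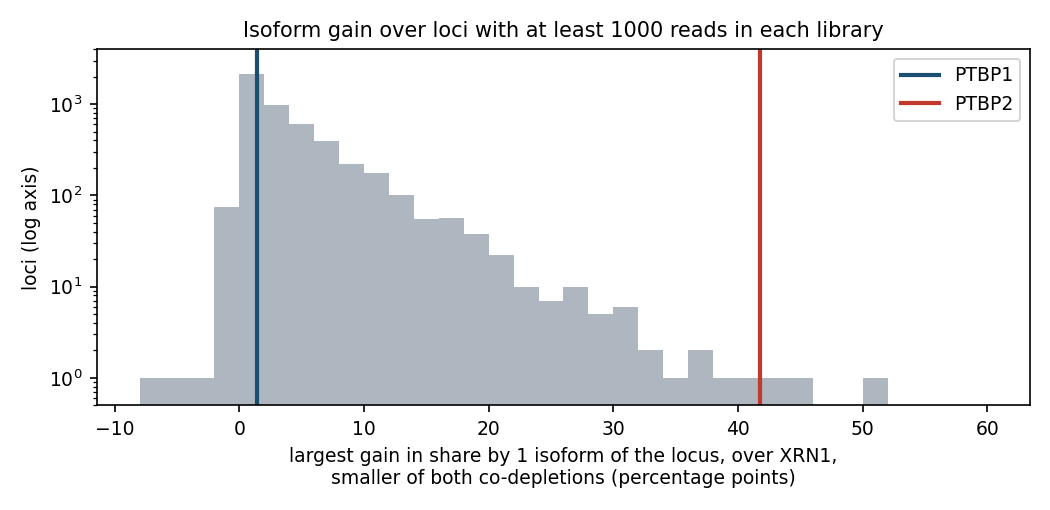
Number of loci (log axis) by the largest gain in share of any of their isoforms over XRN1, in percentage points, taking the smaller of both co-depletions. PTBP2 (red line) lies at 41.7 points and PTBP1 (blue line) at 1.38.

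The summed signal of PTBP2 was 8144 in the control, 15818 with XRN1 depleted, and 36253 and 31094 with SMG6 or UPF1 depleted as well. It was 1.94 times the control in XRN1 (1.84 to 2.05), and both co-depletions lay higher still. SMG6/XRN1 was 2.29 times XRN1 (2.21 to 2.38) and UPF1/XRN1 1.97 times XRN1 (1.89 to 2.04). On the scale of log2((a + 1)/(b + 1)), used for all calls of 2-fold, these were 1.20 and 0.98, of which the first passed 2-fold. Centred on the median locus, an alternative chosen after seeing the data, the first was 0.97 and no longer passed. Among all loci with a mean of at least 10 reads, 6.8% were at least 2-fold higher in summed signal in SMG6/XRN1 than in XRN1, and 8.65% in UPF1/XRN1 than in XRN1. The corresponding medians over these loci were 0.23 and 0.12. Both comparisons use the same XRN1 library, so they are not independent of each other.

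Most of the excess of PTBP2 over XRN1 sat in the isoform without exon 10. Without it, the remaining PTBP2 signal was 21127 in SMG6/XRN1 and 16955 in UPF1/XRN1, 1.34 times (1.28 to 1.39) and 1.07 times (1.03 to 1.12) the value in XRN1. Against the control the remainder was still 2.59 times (2.47 to 2.73) and 2.08 times (1.98 to 2.19), beside the 1.94 times of XRN1 alone. PTBP2 was outside the gene table, so it has no FPKM here and its level cannot be set against that of PTBP1 by FPKM. In summed signal, which weighs a long isoform more, PTBP1 stood at 30876, 39537, 43875 and 44144 in control, XRN1, SMG6/XRN1 and UPF1/XRN1. PTBP2 stood at 8144, 15818, 36253 and 31094. In such bulk RNA, more cells with the transcript and more transcript per cell cannot be told apart.

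**Figure D3:**
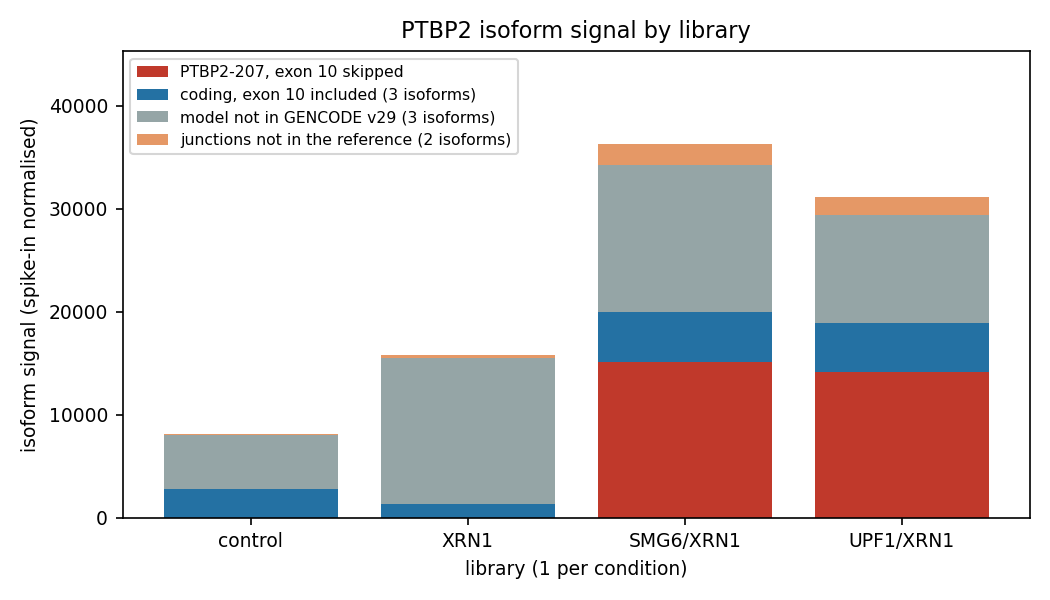
Spike-in normalised signal of PTBP2 in each library (1 per condition), stacked by kind of isoform. The red part, the isoform without exon 10, is 15127 in SMG6/XRN1 and 14139 in UPF1/XRN1. It is listed at 0 in the other libraries, which can be a failed estimate.

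Coding PTBP2 isoforms with exon 10 gave values that moved between near-identical models. PTBP2-202 stood at 2753, 0.194, 4840 and 3633 in control, XRN1, SMG6/XRN1 and UPF1/XRN1. PTBP2-201, which shares 12 of its 13 junctions with it and whose last exon begins 3 nt earlier, stood at 0, 1350, 50.3 and 1127. One was therefore high where the other was near 0, and their split was not read further. Summed with PTBP2-203, the coding models with exon 10 stood at 2754, 1351, 4890 and 4760, or 33.8%, 8.54%, 13.5% and 15.3% of the locus. Their sum was lowest in XRN1, at 0.492 of the control (0.43 to 0.56), and was 1.78 times the control in SMG6/XRN1 (1.62 to 1.95) and 1.73 times in UPF1/XRN1 (1.58 to 1.9). It covers only models found in GENCODE v29. Models matching other reference transcripts held 64.6% of the locus in the control and 89.3% in XRN1. Whether reads moved between models was not tested.

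Another 3 PTBP2 models match reference transcripts that are not in GENCODE v29, so their exons are not described here. The one matching ENST00000236228.6 stood at 3753, 5469, 1526 and 0 and was the leading PTBP2 isoform of the control, with 46.1% of the locus. The one matching ENST00000541987.1 stood at 1506, 8664, 12649 and 10494 and led in XRN1 with 54.8%. The leading isoform thus differed between the control, XRN1 and the co-depletions. The last of the 3 was listed at 0 in all libraries.

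An assembled isoform with junctions outside the reference, TCONS_00004192, was low in the control and highest in SMG6/XRN1. It stood at 124, 326, 1945 and 1216, which was 6.01 times XRN1 in SMG6/XRN1 (4.73 to 7.72) and 3.75 times in UPF1/XRN1 (2.93 to 4.86). A second, TCONS_00004191, was listed at 0 in control and XRN1 and stood at 116 and 485. Their exons are not in the files, and whether either lacks exon 10 was not tested.

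The table's signals are reads, in which a long isoform weighs more than a short one. Per kilobase of the GENCODE v29 models, PTBP2-207 had 2104 reads in SMG6/XRN1 and 2248 in UPF1/XRN1. On that scale PTBP2-202 had 373 and 320, and PTBP2-201 had 3.87 and 99.1. The isoform without exon 10 therefore stood above both coding models per length as well as in reads.

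PTBP2 is a neuronal gene by reputation, so neuron markers were set beside it. Summed over 8 listed, of which 6 were in the gene table, they stood at 63.8, 65.4, 50.4 and 39.0 FPKM, lower in the co-depletions in which PTBP2 was higher. Most of this was the neurofilament gene NEFL (56.5, 57.3, 41.9 and 31.3 FPKM). The synaptic gene SNAP25 moved the other way and with PTBP2, at 1.93, 3.76, 5.35 and 5.07 FPKM (log2 of 1.11 and 1.05 in the co-depletions over control), while SYT1, also synaptic, stood at 0.137 FPKM or below. MAP2 was lower than the control in each depletion, at 3.77, 1.69, 2.2 and 1.26 FPKM (log2 of -0.58 and -1.08 in the co-depletions over control). Of the 4 markers with a mean of at least 1 FPKM, 1 was past 2-fold higher and 1 lower in UPF1/XRN1 over control. The shares of all loci with that mean were 10.2% and 0.575%. The cells are of 1 line, and a link between these markers and PTBP2 was not tested.

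PTBP1, by contrast, stayed within 2-fold over the libraries. Its locus had 63.3 FPKM in the control and 79.3, 83.5 and 85.3 FPKM after depletion of XRN1, of SMG6 with XRN1 and of UPF1 with XRN1. The log2 change was 0.32 from control to XRN1, 0.07 from XRN1 to SMG6/XRN1 and 0.10 from XRN1 to UPF1/XRN1, none past 2-fold. In these comparisons 4.11%, 1.36% and 2.52% of 12164 loci with a mean of at least 1 FPKM were at least 2-fold higher and 0.37%, 0.173% and 0.534% lower, and the median locus changed by 0.14, 0.12 and 0.02. Ratios of PTBP1 spike-in normalised signal were 1.28 (1.24 to 1.32), 1.11 (1.08 to 1.14) and 1.12 (1.09 to 1.15). Over the control, the signal was 1.42 times in SMG6/XRN1 (1.38 to 1.46) and 1.43 times in UPF1/XRN1 (1.39 to 1.47). The control was thus the lowest library, and the signal in UPF1/XRN1 was 1.01 times that in SMG6/XRN1 (0.98 to 1.03).

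Coding isoforms that differ at exon 9 held 97.5%, 95.8%, 92.7% and 94.4% of PTBP1 signal. This exon lies between RNA-binding domains and is known to alter the repressive activity of PTBP1. It can be included in full (78 nt, 26 codons), included from an inner splice site (57 nt, 19 codons) or skipped, always in frame. It is printed here because it separates the 3 coding forms, with the 21 nt found only in the full form in capitals (chr19:805492-805569, plus strand, GRCh38).
PTBP1 exon 9: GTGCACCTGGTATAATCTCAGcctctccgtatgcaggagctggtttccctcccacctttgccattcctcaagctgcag

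The full-exon form, almost all of it PTBP1-203, had a signal of 11792, 16437, 18278 and 18531 in control, XRN1, SMG6/XRN1 and UPF1/XRN1. The 57-nt form PTBP1-204 had 11441, 13675, 15592 and 13685. The form without exon 9, PTBP1-201, had 6877, 7781, 6783 and 9435. No form differed by 2-fold between any 2 libraries.

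As shares of the 3 forms, the full exon made up 39.2% in the control (38.1 to 40.3) and 43.4% to 45.0% in the other libraries. The skipped form made up 22.8% in the control (21.9 to 23.8), 20.5% in XRN1 (19.7 to 21.4), 16.7% in SMG6/XRN1 (15.9 to 17.5) and 22.7% in UPF1/XRN1 (21.9 to 23.4). The low value of SMG6/XRN1 lay outside the counting intervals of the other libraries. The 57-nt form was lowest in UPF1/XRN1, at 32.9% (32.0 to 33.7).

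**Figure D4:**
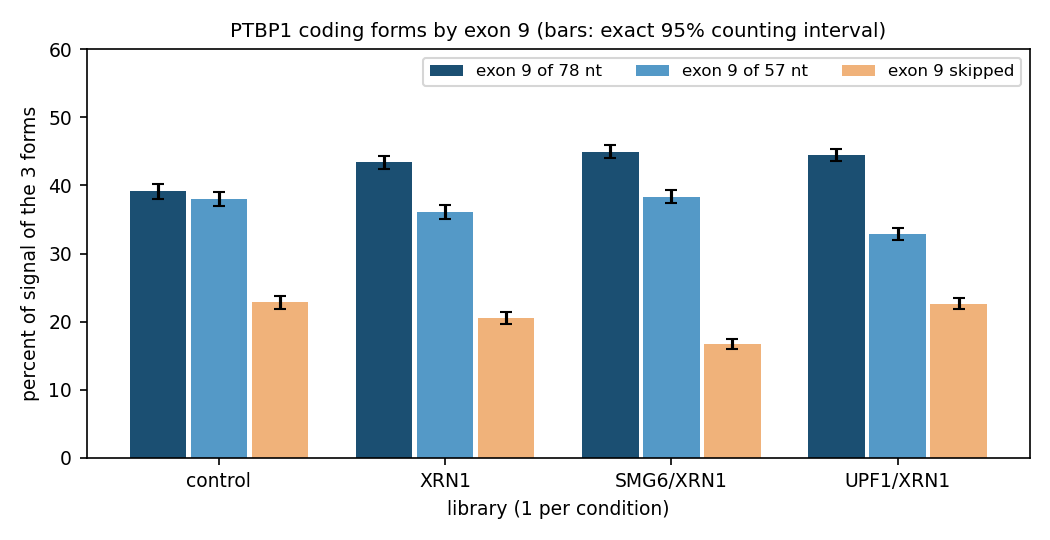
Share of each PTBP1 coding form in the signal of the 3 forms, in percent, by library (1 per condition), with exact 95% counting intervals as error bars. The full form (dark blue) is 39.2% in the control and 43.4% to 45.0% elsewhere, and the skipped form (orange) is lowest in SMG6/XRN1 at 16.7%.

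A minor PTBP1 isoform did follow the depletions. TCONS_00096297, assembled with junctions outside the reference, had a signal of 445 in the control, 1339 with XRN1 depleted, and 2702 and 2103 with SMG6 or UPF1 depleted as well. It was 3.00 times the control in XRN1 (2.42 to 3.74), and a further 2.02 times (1.76 to 2.31) and 1.57 times (1.37 to 1.8) XRN1 in the co-depletions. Its share of the locus went from 1.44% in the control to 3.39%, 6.16% and 4.76%. Its exons are not in the files, and whether it lacks exon 11 was not tested. A listed model that skips exon 11, PTBP1-205, is annotated as coding and was listed at 0 in all 4 libraries. None of the listed PTBP1 or PTBP2 isoforms that match a GENCODE model is annotated as an NMD substrate. PTBP2-207 is annotated as a processed transcript.

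PTBP1 models with a retained intron were scarce and higher in the co-depletions. Summed over 4 models they had 5, 6, 32 and 55 estimated reads, and their highest share of the locus was 0.46% (0.349 to 0.603, in UPF1/XRN1). Their signal was 5.599 times XRN1 in SMG6/XRN1 (2.31 to 16.4) and 8.42 times in UPF1/XRN1 (3.63 to 23.9). The retained-intron models PTBP1-216 and PTBP1-217 supplied most of it, PTBP1-216 with 46.4 and 120 and PTBP1-217 with 81.5 and 76.7 in SMG6/XRN1 and UPF1/XRN1.

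Single isoforms are noisy, which sets how far such changes can be read. With a mean of at least 10 reads, 24.2% of all isoforms were at least 2-fold higher and 8.58% lower in SMG6/XRN1 than in XRN1, and 26.3% higher and 10.9% lower in UPF1/XRN1 than in XRN1. In XRN1 over control 23.7% were higher and 11.8% lower, beside 2 and 0 of 8 PTBP1 and 3 and 1 of 7 PTBP2 isoforms. Of the 8 PTBP1 isoforms with that mean, 4 were higher and 0 lower in SMG6/XRN1, and 2 higher and 1 lower in UPF1/XRN1. Of the 7 PTBP2 isoforms, 4 were higher and 2 lower in SMG6/XRN1, and 4 higher and 1 lower in UPF1/XRN1. The other 8 PTBP1 and 6 PTBP2 isoforms were below that mean, 2 and 3 of them at 0 in all 4 libraries.

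The authors' NMD mark, which is set by these same values, was on 5 of 13 PTBP2 and 4 of 16 PTBP1 isoforms, beside 14% of all isoforms and 27.6% of those with a mean of at least 10 reads. Being set by the values, it supports nothing about them. Marked isoforms held 20.02%, 65.4%, 82.4% and 88.3% of PTBP2 signal in control, XRN1, SMG6/XRN1 and UPF1/XRN1. In PTBP1 they held 1.501%, 3.45%, 6.47% and 5.23%. Of the 4921 deeply covered loci, 1.85% had at least the PTBP2 share in SMG6/XRN1 and 1.63% in UPF1/XRN1, while 31.7% and 37.2% had at least the PTBP1 share. The mark does not follow coding type, since PTBP2-201, annotated as coding and carrying exon 10, was also marked.

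Other genes of the pathway were read by FPKM. Of 14 measured relatives and partners of the PTB proteins, none passed 2-fold in either direction in XRN1 over control, SMG6/XRN1 over XRN1 or UPF1/XRN1 over XRN1, with medians of -0.06, 0.14 and 0.07. FUBP1, which binds single-stranded DNA and RNA, was nearest, at 65.2, 59.97, 120 and 105 FPKM (0.99 and 0.79 over XRN1 in the co-depletions). The nuclear matrix protein gene MATR3, a PTBP1 partner, stood at 411, 511, 673 and 786 FPKM, and the co-repressor RAVER1 at 29.03, 35.01, 40.5 and 43.4. NOVA1, a splicing regulator of neurons, had 0.68 and 0.25 over XRN1. At the low end were HNRNPK (-0.08 and -0.23), ELAVL1 (0.01 and -0.18) and, in SMG6/XRN1, MBNL1 (0.04), and the third family member PTBP3 stood at 17.9, 16.9, 17.5 and 14.5 FPKM.

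Of 26 measured genes with exons known to respond to PTB proteins, 2 were past 2-fold higher in XRN1 over control and none lower, beside 4.11% higher and 0.37% lower of all loci. They were the tropomyosin gene TPM2 (1.44 to 4.67 FPKM, 1.22) and the GABA receptor gene GABBR1 (0.609 to 3.49 FPKM, 1.48). Over XRN1 none passed 2-fold in either co-depletion and in either direction, with medians of 0.14 and 0.02 beside 0.12 and 0.02 for all loci. The highest were the death receptor gene FAS (0.84 and 0.78), TPM2 (0.71 and 0.77), GABBR1 (0.58 in SMG6/XRN1) and the filamin gene FLNA (0.40 in UPF1/XRN1). Among the lowest were the non-muscle myosin gene MYH10 (-0.09 in SMG6/XRN1) and the caldesmon gene CALD1 (-0.41 in UPF1/XRN1).

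Of 7 other RNA-binding repressors whose own RNA has NMD exons, none passed 2-fold over XRN1 in either co-depletion (medians 0.27 and 0.05). TIA1 had 0.84 and 0.62, while HNRNPD had 0.02 and -0.25, HNRNPL 0.06 and -0.06 and HNRNPA2B1 0.11 and -0.06. HNRPDL had 0.29 in SMG6/XRN1 and TIAL1 0.31 in UPF1/XRN1. By the same scale PTBP2, read from summed signal since it has no FPKM, had 1.20 and 0.98.

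The genes with the profile most like that of PTBP1 over the 4 libraries, by the Euclidean distance of centred log2(FPKM + 1) among 5958 genes, were ADSL (0.0155), RGPD6 (0.0249) and PECR (0.0302). RGPD6 has near-identical copies, so its value is uncertain. For PTBP2, by summed signal among 3613 loci, they were C17orf76-AS1 (0.108), FNBP4 (0.178) and CCDC66 (0.22). C17orf76-AS1 stood at 38562, 68161, 158221 and 135727.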

How the data were processed

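RNA-seq of 4 libraries was used, 1 per condition. Per the submitters' processing notes, the tools were Cufflinks 2.0.2, TopHat2 2.0.6, CASAVA 1.8.2 and Bowtie 0.12.7, in no stated role, on hg19. The authors deposited FPKM per locus, and a spike-in normalised signal per assembled isoform (which spike-in was used is unknown here). Other deposited columns are the authors' identifiers, class codes and TRUE or FALSE marks. The NMD mark was TRUE exactly where both co-depletions were above 0 and over 2 times the control (0 mismatches).

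Estimated reads are signal divided by the value of 1 read, the commonest low locus signal (3.85, 4.05, 4.25 and 3.72). Of loci with at most 20 reads, 84.6% to 86.7% came out whole within 0.01. Since other loci hold fractions, no count test was run. Isoform reads are themselves estimates, so true errors exceed the counting intervals. The strand setting of the counting is unknown here. Ratios carry exact conditional binomial intervals, shares Clopper-Pearson intervals.

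Exon structures come from GENCODE 29 by transcript identifier without version, with 9 of 9 PTBP1 and 10 of 13 PTBP2 reference matches found. Isoforms with at least 5% of the locus in any library and the 3 largest marked ones were named. From each list the 3 highest and 3 lowest genes in each co-depletion over XRN1 were named, and the 3 genes most like each member; some genes this rule names are not reported here but stay in the counts and medians. TCONS_00004191, the retained-intron models and the genes past 2-fold in XRN1 were named after their values were seen. Members and lists were chosen with earlier results of these data known. Python 3.11.15, pandas 2.3.3 and SciPy 1.17.1 were used, and the calculations were tested on simulated data.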

Additional observations from a re-analysis of the deposited data

How the results depend on the processing

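Of 161 alternative values for 61 results, 108 stayed within the counting interval (for counts, within 1.5 times) and 53 did not; none turned a change of 2-fold or more. For PTBP1, centring on the median gene gave 0.18 (XRN1 against control), -0.042 (SMG6/XRN1 over XRN1), 0.14 and 0.27 (SMG6/XRN1 and UPF1/XRN1 over control) and 0.13 (UPF1/XRN1 over SMG6/XRN1), so the direction of SMG6/XRN1 over XRN1 depends on centring. Summed isoform signal gave 0.15 and 0.16 over XRN1 and 0.51 and 0.52 over control. For PTBP2 summed signal, scaling to the library's total reads gave 0.81 (XRN1 against control), 1.05 (SMG6/XRN1 over XRN1), 1.86 and 1.78 (SMG6/XRN1 and UPF1/XRN1 over control) and -0.083 (UPF1/XRN1 over SMG6/XRN1). Centring, chosen after seeing the data, gave 0.77, 0.97, 1.75, 1.64 and -0.10 in that order and 0.86 for UPF1/XRN1 over XRN1, so SMG6/XRN1 over XRN1 ended under 2-fold. Leaving out PTBP2-207, also chosen afterwards, gave 0.42 and 0.10 over XRN1, 1.38 and 1.06 over control and -0.32 between the co-depletions. Over models of exact reference match alone, the share of PTBP2-207 was 44.2% and 48.1%.

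Marking isoforms over 2 times XRN1 in place of the control gave shares, in the library order of the report, of 0.236%, 0.0644%, 0.314% and 0.561% in PTBP1 and 35.3%, 2.06%, 60.8% and 62.6% in PTBP2. At a mean of at least 5 FPKM, loci past 2-fold higher numbered 315 and lower 25 for XRN1 against control, 102 and 11 for SMG6/XRN1 against XRN1, and 203 and 41 for UPF1/XRN1 against XRN1 (500 and 45, 166 and 21, and 306 and 65 at 1 FPKM), and 1 of the PTB-responsive genes passed 2-fold in XRN1 over control. A pseudocount of 0.1 put 1 partner gene past 2-fold in SMG6/XRN1 over XRN1. With loci of at least 300 reads, chosen after seeing the data, 0.731% gained 30 points. No paired analysis was possible because each condition has 1 library and the result comes from no test.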
